A study of Mus musculus with 12 samples.

Results

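The Myc, Max and Mxd network comprised 10 genes here, Myc, Mycn, Mycl, Max, Mxd1, Mxd3, Mxd4, Mxi1, Mnt and Mga, chosen by symbol out of 17365 genes in a table of RNA-seq counts. All 10 were found and all 10 passed the filter on low counts, which 13312 of the 17365 genes passed. The libraries came from adherent cultures of mouse neural stem cells (NSCs) derived from the subventricular zone of mice 6 to 8 weeks old and used below passage 10. EGF/FGF cultures, which proliferate, received EGF and FGF-2. BMP cultures received BMP-4 alone, which gives dormant quiescent cells (d-qNSCs). BMP/FGF cultures received BMP-4 with FGF-2, which gives primed quiescent cells (p-qNSCs). Each factor was present at 10 ng/ml for 3 days, on laminin in serum-free medium with N2 and B27, and no genotype was altered. Every condition had 4 libraries, 2 of the ANS4 line (MF1 mice) and 2 of the BL6 line (C57BL/6 mice). With 1 line from each strain, line and strain cannot be told apart. The submitters call the libraries of a line and condition biological replicates without saying how the cultures were separated, so p-values measure the spread between these libraries.

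MYC, MYCN and MYCL are basic helix-loop-helix leucine zipper proteins that bind DNA as a pair with MAX, mainly at the E-box CACGTG, and recruit acetyltransferases to genes of ribosome production, nucleotide synthesis and the cell cycle. The MXD proteins (MXD1, MXD3, MXD4 and MXI1, also called MXD2), MNT and MGA pair with MAX at the same sites and repress them, MXD and MNT through SIN3 and histone deacetylases, and MGA through a Polycomb complex named PRC1.6. Myc and Mycn are known for driving the growth of neural progenitors, and Mxd genes are known for rising as cells leave the cycle.

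Library totals lay between 18069052 and 19451818 counts, and the pair of replicates that differed most was BL6 BMP. Levels are given as CPM, the counts of a gene scaled to a library of fixed size after TMM normalization, a share of each library, which does not show a change in total RNA per cell. In bulk RNA, a smaller number of cells that express a gene and less RNA per cell cannot be told apart. Changes were tested with edgeR's quasi-likelihood test over all 12 libraries with the line as a term, and a gene was called at a false discovery rate (FDR) under 0.05. All 10 neural stem markers were present, and their summed level ran from 7387 to 8034 CPM in EGF/FGF, with 10170 to 11320 CPM for BMP and 13070 to 13540 CPM for BMP/FGF. Their directions were mixed, with 7 higher and 3 lower (Nes, Fabp7 and Hes5) in each quiescent state against EGF/FGF. Of all tested genes, 40.8% were higher and 38.8% lower in BMP, and 40.9% and 38.0% in BMP/FGF.

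In BMP against EGF/FGF, 9 of the 10 genes were called, where 79.6% of all tested genes were, so the count is near that of genes at large. Of these, 7 were higher (Mycn, Mycl, Max, Mxd1, Mxd4, Mxi1 and Mnt), where 40.8% of tested genes were higher. Myc and Mxd3 were lower, where 38.8% of tested genes were lower, and Mga did not pass. All 10 were called in BMP/FGF against EGF/FGF, beside 78.9% of tested genes. The same 7 genes were higher (40.9% of tested genes) and Myc, Mxd3 and Mga were lower (38.0%). Between the quiescent states 6 genes were called, and all 6 were lower in BMP/FGF than in BMP: Mycn, Mycl, Max, Mxd3, Mnt and Mga. For all tested genes 41.4% were called, 20.1% higher and 21.3% lower. The median log2 fold change of the 10 genes was 0.99 in BMP and 0.72 in BMP/FGF against EGF/FGF, and -0.335 in BMP/FGF against BMP, beside medians of 0.02, 0.02 and -0.004 over all tested genes. The comparisons share libraries, so these counts are not separate evidence of one another.

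**Figure D1:**
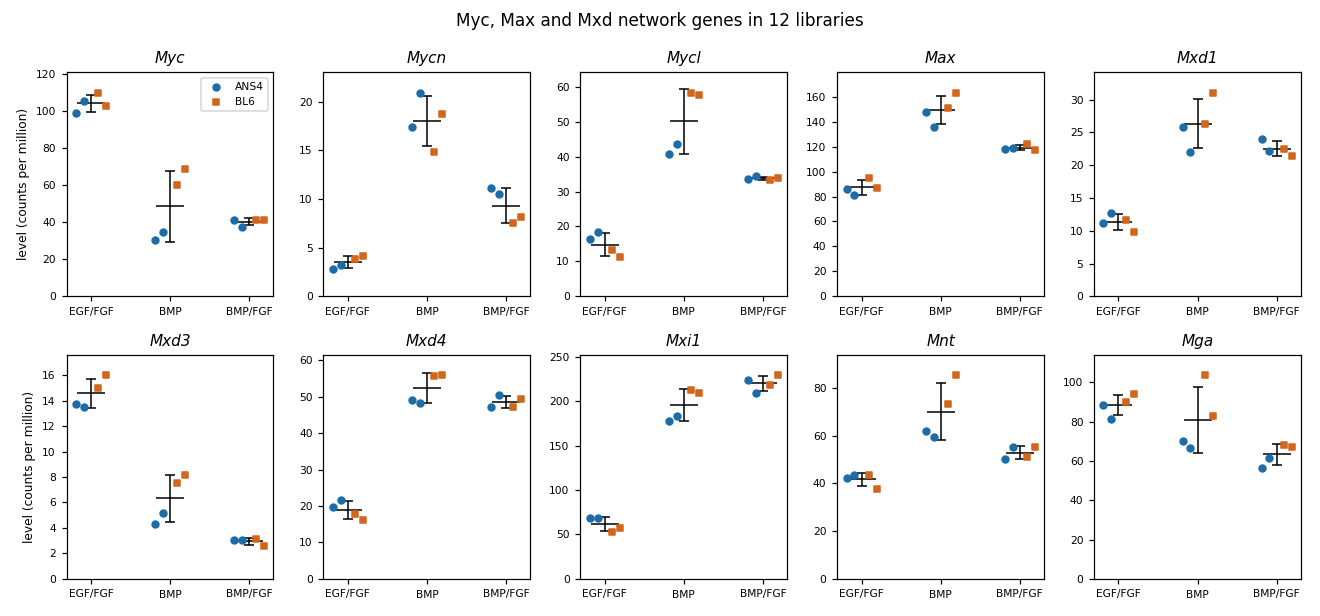
Level in CPM (vertical axes, each from 0) of the 10 network genes in the 12 libraries by condition, with ANS4 as circles, BL6 as squares, and mean ± SD of 4 libraries in black. Myc and Mxd3 lie highest in EGF/FGF, whereas the BMP libraries of Mycn, Mycl, Max, Mxd1, Mxd4, Mxi1 and Mnt all lie above those of EGF/FGF.

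Myc (ENSMUSG00000022346, chr15:61985391-61990374, plus strand, build GRCm38) encodes the most widely expressed activator of the family. In EGF/FGF its level was 99.0 and 105.3 CPM in ANS4 and 109.9 and 102.4 CPM in BL6. In BMP it was 30.4 and 34.4 CPM in ANS4 and 60.1 and 68.8 CPM in BL6. In BMP/FGF it was 40.9 and 37.3 CPM in ANS4 and 41.0 and 41.3 CPM in BL6. Every quiescent library lay below every proliferating one, and the BMP libraries of the 2 lines lay on opposite sides of the BMP/FGF libraries. Myc fell by 1.15 on the log2 scale in BMP (SE 0.14, FDR = 7.455e-07), a 2.22-fold lower level. In BMP/FGF it fell by 1.38 (SE 0.14, FDR = 8.21e-08), 2.60-fold lower. The fall in BMP was 1.66 in ANS4 and 0.72 in BL6, and this difference between the lines was itself called (0.94, SE 0.12, FDR = 0.000109). The fall in BMP/FGF was alike in size in the lines, 1.39 in ANS4 and 1.37 in BL6, with a difference of 0.02 (SE 0.12, FDR = 0.954).

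Between the quiescent states, Myc therefore moved in opposite directions in the lines. The log2 fold change of BMP/FGF against BMP was 0.27 in ANS4 (SE 0.09, FDR = 0.0296) and -0.65 in BL6 (SE 0.09, FDR = 8.11e-06). The difference of -0.92 had an SE of 0.12 (FDR = 0.000207). Over both lines the value was -0.23 (SE 0.15, FDR = 0.228), and without ANS4 BMP replicate 1 it was -0.38 (FDR = 0.0275).

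Mycn (ENSMUSG00000037169, chr12:12936093-12941914, minus strand) encodes the paralogue that prevails in embryonic neural progenitors. It was at 2.85 and 3.26 CPM in ANS4 EGF/FGF and at 3.85 and 4.18 CPM in BL6 EGF/FGF. In BMP it was at 17.4 and 20.9 CPM in ANS4 and at 14.8 and 18.8 CPM in BL6. In BMP/FGF it was at 11.2 and 10.5 CPM in ANS4 and at 7.49 and 8.10 CPM in BL6. The 3 conditions did not overlap, with BMP/FGF between the others. Mycn rose 5.05-fold in BMP (log2 2.34, SE 0.15, FDR = 8.90e-11) and 2.61-fold in BMP/FGF (log2 1.38, SE 0.16, FDR = 2.60e-07), from 55 to 81 counts a library in EGF/FGF. It was 1.94-fold lower in BMP/FGF than in BMP (log2 -0.95, SE 0.13, FDR = 2.34e-05).

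Mycl (ENSMUSG00000028654, chr4:122995652-123002485, plus strand) encodes L-Myc, the weakest activator of the family. Its EGF/FGF levels were 16.3 and 18.45 CPM in ANS4 and 13.2 and 11.2 CPM in BL6. In BMP they were 40.6 and 43.7 CPM in ANS4 and 58.4 and 57.7 CPM in BL6. In BMP/FGF they were 33.5 and 34.4 CPM in ANS4 and 33.3 and 33.9 CPM in BL6. BL6 was lower than ANS4 in EGF/FGF and higher in BMP, and the 4 BMP/FGF libraries lay between 33.3 and 34.4 CPM. Mycl rose by 1.76 on the log2 scale in BMP (SE 0.14, FDR = 1.54e-09) and by 1.19 in BMP/FGF (SE 0.14, FDR = 3.76e-07). The BMP/FGF level lay below the BMP level (log2 -0.57, SE 0.13, FDR = 0.00193). The rise in BMP was 2.43-fold in ANS4 and 4.75-fold in BL6, a difference of 0.97 on the log2 scale (SE 0.13, FDR = 0.000275).

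Levels of different genes can be compared only per length, and CPM was divided by the length of the longest annotated transcript for this. The share of Myc in the summed level of Myc, Mycn and Mycl per kb was 87.4 to 90.2% in EGF/FGF. It was 41.8 to 42.0% in ANS4 BMP, 53.7 to 55.6% in BL6 BMP and 53.7 to 58.7% in BMP/FGF. Mycl held between 6.60 and 10.2% in EGF/FGF, between 31.1 and 37.3% in BMP, and between 30.6 and 33.1% in BMP/FGF. For Mycn the share ran from 2.215 to 3.22%, from 11.5 to 22.3% and from 9.39 to 13.4%, in the same order of conditions. The share of Myc was lower, and those of Mycl and Mycn were higher, in every quiescent library than in any EGF/FGF library. With the median transcript length instead, Mycl took the largest share in quiescence (63.4 to 70.05% in BMP), since several short Mycl transcripts are annotated. The summed level per kb of the 3 genes was lower in every BMP/FGF library than in any EGF/FGF library with either length. It was 29.7 to 31.2 against 48.1 to 52.2 with the longest transcript, and 71.6 to 73.2 against 74.1 to 85.4 with the median. In BMP the sum depended on the line and the length. With the longest transcript it was 31.1 to 35.0 in ANS4 BMP against 48.1 to 51.5 in ANS4 EGF/FGF, and in BL6 it overlapped, at 47.9 to 52.9 against 48.5 to 52.2. With the median length it overlapped in ANS4, at 79.7 to 87.6 in BMP against 78.75 to 85.4 in EGF/FGF, and was higher in BL6 BMP, at 119.5 to 125.0 against 74.1 to 81.0. The fall in the share of Myc was found with both lengths, to 21.3 to 30.7% in BMP from 68.8 to 77.0% with the median.

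**Figure D2:**
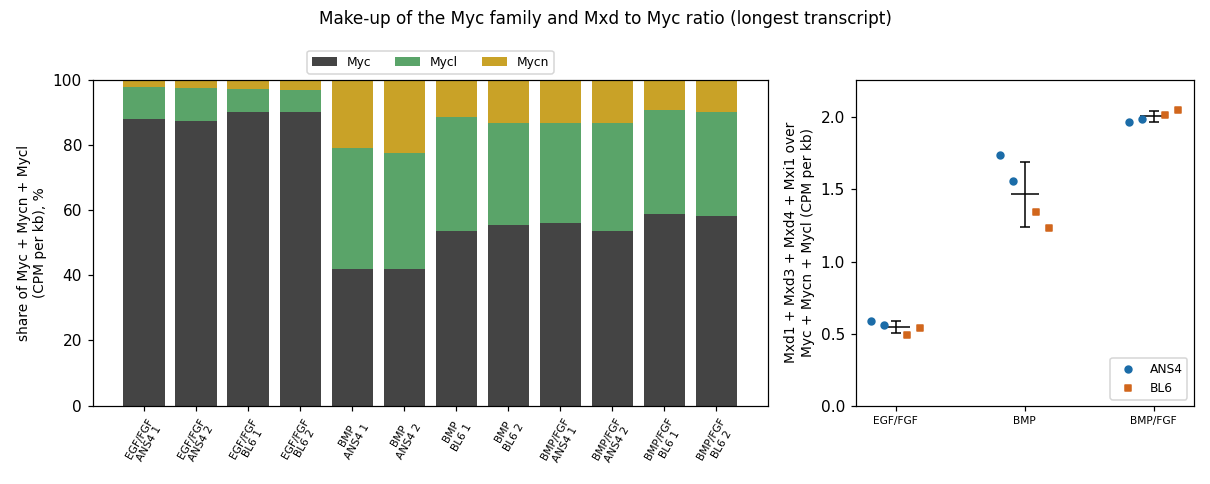
Left, share (%) of Myc, Mycl and Mycn in their summed level per kb in each of the 12 libraries. Right, ratio of the summed Mxd level to the summed Myc family level per kb by condition, with ANS4 as circles, BL6 as squares, and mean ± SD of 4 libraries in black. Myc takes 87.4% or more of the sum in EGF/FGF and 58.7% or less in quiescence, and the ratio lies between 0.488 and 0.584 in EGF/FGF and above 1.23 in every quiescent library.

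Max (ENSMUSG00000059436, chr12:76937269-76962201, minus strand) encodes the shared partner with which the other members bind the E-box. It stood at 86.1 and 81.2 CPM in ANS4 EGF/FGF and at 95.1 and 87.1 CPM in BL6 EGF/FGF. In BMP it stood at 148.0 and 136.2 CPM in ANS4 and at 151.2 and 163.4 CPM in BL6, and in BMP/FGF at 118.3, 118.6, 122.2 and 117.5 CPM. The order EGF/FGF, BMP/FGF, BMP held in both lines without overlap. Max rose 1.71-fold in BMP (log2 0.78, SE 0.06, FDR = 9.69e-10) and 1.365-fold in BMP/FGF (log2 0.45, SE 0.06, FDR = 1.64e-06), and was 1.255-fold lower in BMP/FGF than in BMP (log2 -0.33, SE 0.06, FDR = 0.000246). The lines' changes in BMP were 0.765 in ANS4 and 0.79 in BL6, and no difference between the lines was called for Max in any comparison (FDR between 0.417 and 0.926).

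Of the 4 Mxd genes, Mxd1, Mxd4 and Mxi1 were higher in both quiescent states and Mxd3 was lower in both. Mxi1 (ENSMUSG00000025025, chr19:53310518-53375810, plus strand) had the highest level per kb of the 4 in each condition with either length. It was at 68.2 and 68.6 CPM in ANS4 and at 53.1 and 57.6 CPM in BL6 in EGF/FGF. In BMP it was at 178.3 and 183.4 CPM in ANS4 and at 212.85 and 209.8 CPM in BL6. In BMP/FGF it was at 223.6 and 210.0 CPM in ANS4 and at 218.3 and 229.8 CPM in BL6. Every quiescent library lay far above every proliferating one, and BMP and BMP/FGF overlapped. The log2 fold change was 1.66 in BMP (SE 0.09, FDR = 4.77e-12) and 1.83 in BMP/FGF (SE 0.09, FDR = 1.33e-12). Between the quiescent states the change was 0.17 (SE 0.08, FDR = 0.110), with 0.26 in ANS4 (FDR = 0.00378) and 0.08 in BL6 (FDR = 0.288).

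Mxd4 (ENSMUSG00000037235, chr5:34173883-34187720, minus strand), often found in differentiating cells, was at 19.7, 21.8, 17.7 and 16.2 CPM in EGF/FGF, the ANS4 libraries first. It was at 49.2 and 48.4 CPM in ANS4 BMP, at 55.7 and 56.0 CPM in BL6 BMP, and between 47.1 and 50.6 CPM in BMP/FGF. BMP and BMP/FGF overlapped and both lay far above EGF/FGF. Mxd4 rose 2.78-fold in BMP (log2 1.475, SE 0.09, FDR = 3.195e-11) and 2.58-fold in BMP/FGF (log2 1.37, SE 0.09, FDR = 1.02e-10), and BMP/FGF against BMP gave -0.11 (SE 0.08, FDR = 0.317).

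Mxd1 (ENSMUSG00000001156, chr6:86647042-86669161, minus strand), the founding Mad gene, was at 11.2, 12.8, 11.7 and 9.82 CPM in EGF/FGF. The BMP libraries were at 25.8 and 22.0 CPM in ANS4 and at 26.3 and 31.1 CPM in BL6, and in BMP/FGF at 24.0, 22.1, 22.5 and 21.4 CPM. Mxd1 rose 2.315-fold in BMP (log2 1.21, SE 0.11, FDR = 6.85e-09) and 1.98-fold in BMP/FGF (log2 0.99, SE 0.11, FDR = 1.33e-07). BMP/FGF against BMP gave -0.23 (SE 0.10, FDR = 0.0814) over both lines, and -0.31 without ANS4 BMP replicate 2 (FDR = 0.01845).

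Mxd3 (ENSMUSG00000021485, chr13:55325168-55329823, minus strand) is the member of the family known to be expressed in proliferating neural progenitors. It was at 13.7 and 13.5 CPM in ANS4 and at 15.0 and 16.0 CPM in BL6 in EGF/FGF. In BMP it was at 4.31 and 5.20 CPM in ANS4 and at 7.57 and 8.19 CPM in BL6, and in BMP/FGF at 3.02, 3.02, 3.13 and 2.57 CPM. The 3 conditions did not overlap, and the lowest level was in BMP/FGF. Mxd3 was 2.33-fold lower in BMP (log2 -1.22, SE 0.13, FDR = 9.65e-08) and 4.94-fold lower in BMP/FGF (log2 -2.30, SE 0.14, FDR = 7.03e-11). From BMP to BMP/FGF it was lower by a further 1.09 on the log2 scale (log2 -1.09, SE 0.155, FDR = 2.93e-05). Mxd3 shares 105 exonic bases with Prelid1 on the other strand, and whether the counting used strand is not given in the sources used here, so reads from the 2 genes may not be fully separated. Exonic bases are also shared by Mxd4 (514 bases, with Gm42846) and Mxi1 (194 bases, with Gm10197).

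The summed Mxd level per kb was 0.49 to 0.58 times that of the Myc family in EGF/FGF. The ratio was 1.56 to 1.74 in ANS4 BMP, 1.23 to 1.34 in BL6 BMP and 1.97 to 2.06 in BMP/FGF. With the median length the ratios were 0.766 to 0.915, 1.54 to 2.03 and 2.51 to 2.66, so the order of the conditions was the same. Mxi1 made up between 41.4 and 48.2% of the Mxd sum in EGF/FGF, between 64.0 and 66.7% in BMP, and between 70.55 and 73.1% in BMP/FGF. For Mxd3 the share ran from 27.0 to 35.1%, from 4.57 to 7.22% and from 2.36 to 2.99% in the same order.

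Mnt (ENSMUSG00000000282, chr11:74830920-74845725, plus strand) encodes a repressor present in cycling and resting cells alike. It was at 42.1, 43.5, 43.6 and 37.8 CPM in EGF/FGF. The BMP libraries stood at 62.0 and 59.5 CPM in ANS4 and at 73.2 and 85.5 CPM in BL6, and in BMP/FGF at 50.1, 55.2, 51.0 and 55.1 CPM. The 3 conditions did not overlap, and the BL6 BMP libraries stood highest. Mnt rose by 0.74 on the log2 scale in BMP (SE 0.09, FDR = 6.45e-07) and by 0.34 in BMP/FGF (SE 0.09, FDR = 0.00251), and was lower in BMP/FGF than in BMP (log2 -0.40, SE 0.09, FDR = 0.001745). Within the lines this last change was -0.21 in ANS4 (FDR = 0.0871) and -0.58 in BL6 (FDR = 3.67e-05). The difference between the lines was not called (FDR = 0.0559).

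Mga (ENSMUSG00000033943, chr2:119897228-119969581, plus strand) encodes a large protein with a T-box as well as the MAX-binding domain. It was at 88.4, 81.5, 90.1 and 94.0 CPM in EGF/FGF. Under BMP it was at 70.3 and 66.6 CPM in ANS4 and at 103.7 and 82.7 CPM in BL6, and in BMP/FGF at 56.5, 61.3, 68.2 and 67.3 CPM. The BMP libraries spanned the EGF/FGF range, with BL6 replicate 1 above it. BMP against EGF/FGF gave -0.14 (SE 0.08, FDR = 0.105), with -0.31 in ANS4 (FDR = 0.00437) and 0.02 in BL6 (FDR = 0.858). Without BL6 BMP replicate 1 the value over both lines was -0.25 (FDR = 0.00186). Mga was lower in BMP/FGF than in EGF/FGF (log2 -0.49, SE 0.08, FDR = 2.33e-05) and than in BMP (log2 -0.34, SE 0.08, FDR = 0.00241). The change from BMP to BMP/FGF was -0.22 in ANS4 (FDR = 0.0797) and -0.46 in BL6 (FDR = 0.000405). The difference between the lines was not called (FDR = 0.221), and the libraries of the quiescent states overlapped.

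Per kb of the longest transcript, Max (45.0 ± 2.98 CPM per kb, SD, n = 4) and Myc (44.5 ± 1.97) led the network in EGF/FGF and overlapped. Mxi1 followed at 12.3 ± 1.55, and Mycn was last at 1.32 ± 0.22. In BMP the order began with Max (77.1 ± 5.76), Mxi1 (38.9 ± 3.53) and Myc (20.7 ± 8.08), and the ranges of Myc and Mnt overlapped, as did those of Mnt and Mycl and of Mycl and Mxd4. In BMP/FGF it began with Max (61.4 ± 1.06), Mxi1 (43.8 ± 1.66) and Myc (17.2 ± 0.80), whose ranges did not overlap one another. Mxd3 was last in both quiescent states, at 3.63 ± 1.07 and 1.68 ± 0.14. The median transcript length left Max first in each condition and put Mnt, Mycl and Mga above Myc in quiescence.

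The difference between the lines was tested for each gene as an interaction, written as the log2 change in BL6 minus that in ANS4. In BMP against EGF/FGF it was called for 5 of the 10 genes (Myc, Mycl, Mxd4, Mxi1 and Mnt), where 9.02% of tested genes were called. The differences were 0.94 for Myc, 0.97 for Mycl, 0.49 for Mxd4 (FDR = 0.0168), 0.53 for Mxi1 (FDR = 0.00182) and 0.46 for Mnt (FDR = 0.0314). The log2 change was thus higher in BL6 than in ANS4 for all 5, which compares changes and not levels. A line difference was called in BMP/FGF against EGF/FGF for Mycl (0.49, FDR = 0.0454) and Mxi1 (0.35, FDR = 0.0336), beside 4.98% of tested genes. Between BMP/FGF and BMP it was called for Myc (-0.92), Mycl (log2 -0.475, FDR = 0.0161) and Mxd3 (-0.81, FDR = 0.0305), beside 13.5% of tested genes. The calls for Myc, Mycl and Mxi1 in BMP against EGF/FGF and for Myc in BMP/FGF against BMP held in each of 18 other fits, in which another normalization, test or set of libraries was used. Of the remaining calls, Mnt was lost in 10 of the 18 and Mxd4 in 4. Mycl was lost in 14 and Mxi1 in 9 in BMP/FGF against EGF/FGF, and Mycl was lost in 5 and Mxd3 in 7 in BMP/FGF against BMP.

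**Figure D3:**
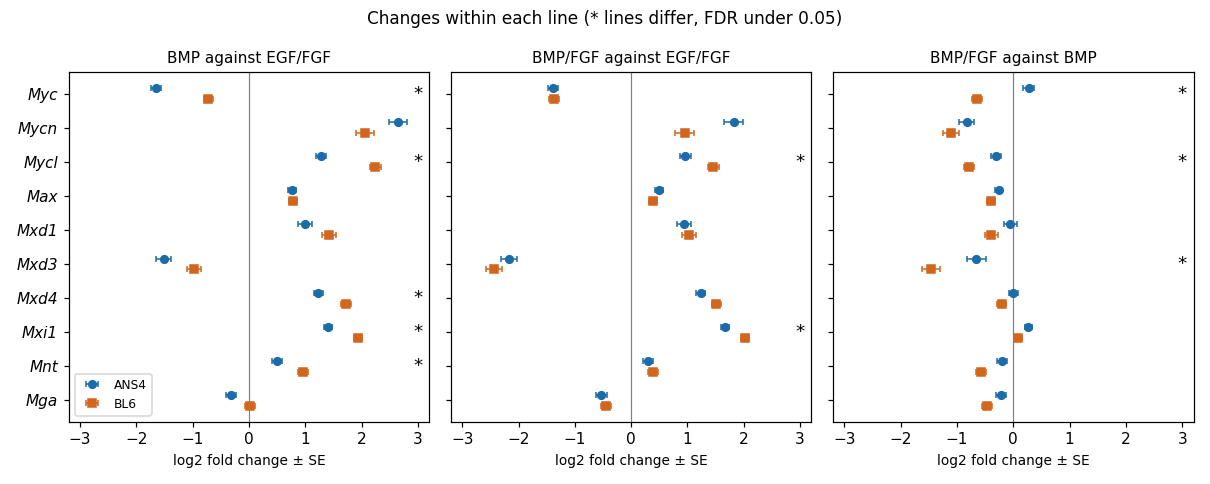
Log2 fold change ± SE (horizontal axes) of each network gene within ANS4 (circles) and within BL6 (squares) in 3 comparisons, with a star where the lines differ at FDR under 0.05. Myc stands at -1.66 in ANS4 and -0.72 in BL6 in BMP against EGF/FGF and on both sides of 0 in BMP/FGF against BMP.

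Beside these line differences, marker levels of other cell states also differed between the BMP libraries of the lines. The summed level of 9 neuroblast markers was 461.8 to 520.0 CPM in EGF/FGF, 922.8 to 926.4 in ANS4 BMP, 1514 to 1615 in BL6 BMP and 436.5 to 487.8 in BMP/FGF. Sox11 (178.5 CPM) and Cd24a (271.6 CPM) made up most of the sum in EGF/FGF, and both were lower in BMP/FGF. Of the 8 tested markers, 5 were higher in BMP/FGF than in EGF/FGF and 3 lower, beside 40.9% and 38.0% of all tested genes. Their median log2 fold change was 2.05. Dcx, a microtubule protein of migrating neuroblasts, averaged 1.29 CPM in EGF/FGF, 279.6 in BMP and 49.9 in BMP/FGF. Proliferation markers (6 genes) summed to 2329 to 2782 CPM in EGF/FGF, 396.5 to 413.9 in ANS4 BMP, 510.8 to 579.4 in BL6 BMP and 285.0 to 301.8 in BMP/FGF. Oligodendrocyte markers (6 genes) summed to 75.2 to 91.6, 235.1 to 278.8 and 317.1 to 332.4 CPM, and none of the 6 was at 0 in all libraries of a condition. Microglia markers, 5 of 7 found, summed to at most 14.7 CPM in any library, and 1 of the 5 was at 0 in every BMP library. The part of these cells in the levels of the network genes was not tested.

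Genes that MYC is known to induce were taken from a list of 58, of which 57 were tested (Tert was not). In BMP against EGF/FGF 55 of the 57 were lower and 2 were higher, with a median log2 fold change of -1.43, where 38.8% of all tested genes were lower. The counts were again 55 and 2 in BMP/FGF against EGF/FGF, with a median of -1.38. There, 38.0% of all tested genes were lower and 40.9% higher. The largest falls in BMP were of Plk1, a mitotic kinase, from 191.1 ± 31.7 to 27.2 ± 5.39 CPM (SD, n = 4; log2 -2.81, SE 0.10), Shmt1, of one-carbon metabolism (log2 -2.64, SE 0.11), and Mcm5, of the replicative helicase (log2 -2.335, SE 0.08). The 2 genes that rose were Tfb2m, a mitochondrial transcription factor (log2 0.22, SE 0.075, FDR = 0.0132), and Slc19a1, a folate carrier (log2 0.24, SE 0.08, FDR = 0.0164). The proliferation markers fell beside them in BMP, by a median of 2.43 on the log2 scale (median -2.43, 6 of 6 lower, beside 38.8% of all tested genes). The part of these markers in the list's fall was not tested.

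Between the quiescent states the targets did not move one way. Of the 57, 15 were lower in BMP/FGF than in BMP, 6 were higher and 36 did not pass, with a median of 0.01, beside 41.4% of all tested genes called, 21.3% lower and 20.1% higher. The 15 lower genes included E2f2 (log2 -1.21, SE 0.18, FDR = 4.11e-05) and Ccnd2 (log2 -1.18, SE 0.08, FDR = 6.90e-09), which drive entry into S phase, and Plk1 (log2 -1.15, SE 0.115, FDR = 5.55e-07). The 6 higher genes included Riox2, a ribosomal oxygenase (log2 0.48, SE 0.12, FDR = 0.00324), Nme2, a nucleoside diphosphate kinase (log2 0.44, SE 0.07, FDR = 0.000117), and Hspe1, a mitochondrial chaperonin (log2 0.43, SE 0.13, FDR = 0.0133). The median of the list was -0.001 within ANS4 and -0.05 within BL6, and 12 of the 57 genes differed between the lines, beside 13.5% of all tested genes.

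**Figure D4:**
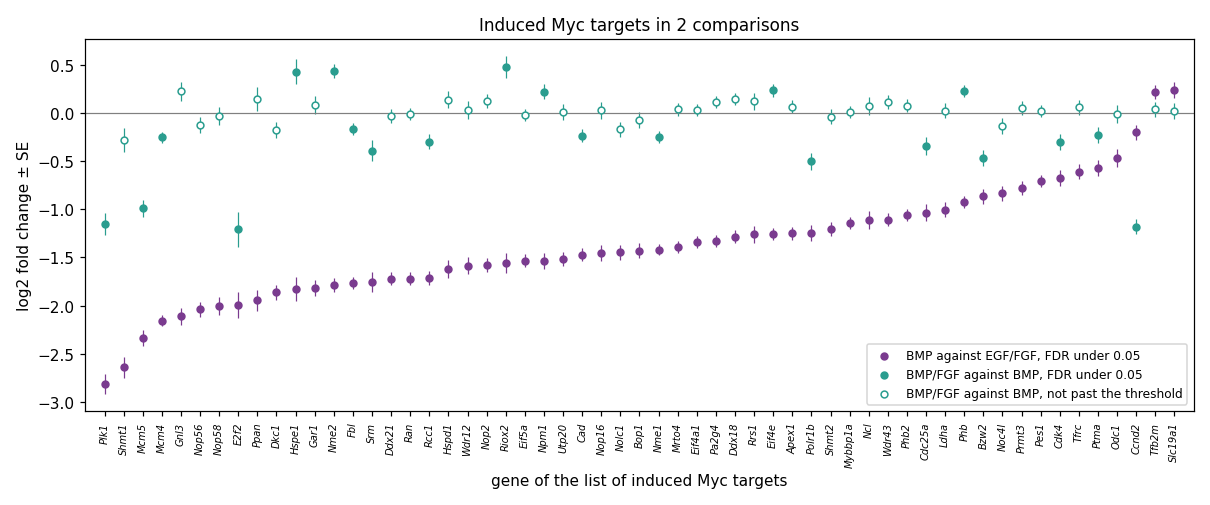
Log2 fold change ± SE (vertical axis) of the 57 tested genes of the list of induced Myc targets, in order of the change in BMP against EGF/FGF. Filled points passed FDR under 0.05 and open points did not. The values of BMP against EGF/FGF lie below 0 for 55 genes, whereas those of BMP/FGF against BMP lie around 0, with E2f2, Ccnd2, Plk1 and Mcm5 lowest.

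The E-box was looked up in promoters from RefSeq (GRCm38.p6), each running from 250 bases before a start site to 50 after it. CACGTG reads the same on both strands. It was found in 8.09% of 27025 genes with a promoter there and in 10.5% of the 13631 of them that are in the count table. Among the network genes it was found in 3 of the 9 with a promoter (33.3%), Max, Mnt and Mxd4, and among the induced targets in 17 of 51 (33.3%). With so few network genes, their count does not set them apart from the 10.5% of the count table. Myc had no promoter in that set, so it was not searched. A match describes letters and is not a measured binding site. The windows below show the motif of the 3 network genes, of Ran, Hspd1 and Nop2, the targets with a match that fell most in BMP, and of Cdk4, whose promoter held 4 matches. Letters run 5′ to 3′ on the gene's strand with the motif in capitals.
Max, chr12:76962236-76962261, minus strand: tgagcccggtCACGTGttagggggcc
Mnt, chr11:74830791-74830816, plus strand: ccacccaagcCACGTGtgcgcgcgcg
Mxd4, chr5:34187914-34187939, minus strand: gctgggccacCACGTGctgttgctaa
Ran, chr5:129020028-129020053, plus strand: tcggccggccCACGTGacccgccgcc
Hspd1, chr1:55088308-55088333, minus strand: ccggctgggaCACGTGaaaaggccgc
Nop2, chr6:125131813-125131838, plus strand: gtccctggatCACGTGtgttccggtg
Cdk4, chr10:127063427-127063452, plus strand: agcaacaggtCACGTGgccgtcaggg

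The motif began 3 bases before the start site in Max (position -3), at -123 in Mnt and at -219 in Mxd4. Ran (nuclear transport) was lower in BMP than in EGF/FGF by a log2 value of -1.72 (SE 0.07), Hspd1 (mitochondrial chaperonin) by -1.62 (SE 0.09), Nop2 (rRNA methylation) by -1.58 (SE 0.07) and Cdk4 (G1 kinase) by -0.68 (SE 0.08), whereas Max, Mnt and Mxd4 with the same motif were higher.

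A list of 10 genes that MYC is known to repress through partners such as MIZ1 did not move one way. In BMP against EGF/FGF 6 were higher and 3 lower, with a median of 0.36, beside 40.8% of all tested genes higher and 38.8% lower. Ndrg1 (log2 2.00, SE 0.13), the cell cycle inhibitor Cdkn2b (log2 1.33, SE 0.11) and Ccng2 (log2 0.86, SE 0.10) were highest, and the inhibitor Cdkn1a was lowest (log2 -2.06, SE 0.08). From BMP to BMP/FGF 4 were higher and 2 lower, where 20.1% and 21.3% of all tested genes were. Cdkn1a was among the higher (log2 0.93, SE 0.08, FDR = 6.60e-08), at 72.8 ± 7.82 CPM in BMP and 138.4 ± 6.91 in BMP/FGF (SD, n = 4) after 303.8 ± 37.6 in EGF/FGF. None of the 9 repressed targets with a promoter held the E-box, beside 10.5% of the genes in the count table. With so few genes, the count does not set the list apart from that share.

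Network members act through recruited proteins. Of 8 corepressor genes used by MXD and MNT, 6 were lower in BMP against EGF/FGF and 2 did not pass, with a median of -0.49, while 38.8% of all tested genes were lower. The lower genes included Hdac2 (log2 -0.68, SE 0.07) and Sap30 (log2 -0.62, SE 0.07), and Sin3a was at 0.006 (SE 0.065, FDR = 0.940). Between the quiescent states 4 were lower in BMP/FGF (21.3% of all tested genes), among them Sin3a (log2 -0.295, SE 0.065) and Sap30 (log2 -0.24, SE 0.07). Of 11 Myc cofactors, 6 were lower and 1 higher in BMP, so that 7 were called where 79.6% of all tested genes were. Ruvbl2 (log2 -1.25, SE 0.07), Actl6a (log2 -1.08, SE 0.06) and Ruvbl1 (log2 -1.02, SE 0.08), subunits of chromatin remodelling complexes, fell most, and the scaffold Trrap rose (log2 0.44, SE 0.07). Between BMP/FGF and BMP 6 cofactors did not pass and 5 were lower (41.4% of all tested genes called, 21.3% lower), among them Trrap (log2 -0.53, SE 0.07) and Ep400 (log2 -0.48, SE 0.07).

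Of 12 genes that set the stability of MYC protein, 7 were lower and 3 higher in BMP against EGF/FGF, beside 38.8% and 40.8% of all tested genes. Aurka (log2 -2.57, SE 0.13), Cip2a (log2 -2.13, SE 0.09) and Skp2 (log2 -1.975, SE 0.09) fell most, and all 3 are also genes of the cell cycle. Ppp2r5a, a phosphatase subunit (log2 0.49, SE 0.06), Trpc4ap, a ubiquitin ligase adaptor (log2 0.30, SE 0.07), and Gsk3b, a kinase that marks MYC for decay (log2 0.13, SE 0.06, FDR = 0.0495), rose. The ligase gene Fbxw7 was at -0.05 (SE 0.06, FDR = 0.504). From BMP to BMP/FGF 6 were lower and 6 did not pass, beside 41.4% of all tested genes called and 21.3% lower, with Aurka (log2 -1.07, SE 0.16, FDR = 3.555e-05) and Cip2a (log2 -0.61, SE 0.095, FDR = 7.35e-05) lowest. MYC protein was not measured in these libraries. From its protein arrays the paper proposes higher MYC in BMP/FGF than in BMP alone, and that protein result was not compared with the RNA.

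Of 10 genes of the PRC1.6 complex with which MGA works, 8 were lower and 1 higher in BMP against EGF/FGF, beside 38.8% and 40.8% of all tested genes. Tfdp1 (log2 -1.12, SE 0.06), L3mbtl2 (log2 -1.10, SE 0.08) and E2f6 (log2 -0.80, SE 0.08) fell most and Ring1 rose (log2 0.21, SE 0.09, FDR = 0.0409). In BMP/FGF against BMP 4 were lower, beside 21.3% of all tested genes, led by Rybp (log2 -0.38, SE 0.06), and E2f6 was higher (log2 0.28, SE 0.08, FDR = 0.0118). In the related MLX branch, whose proteins sense glucose, Mlx was lower in BMP (log2 -0.88, SE 0.07) and Mlxip higher (log2 0.26, SE 0.08, FDR = 0.00499), while Mlxipl stood at 0.48 to 0.60 CPM on average in the 3 conditions and was not called. Mlxip was lower in BMP/FGF than in BMP (log2 -0.455, SE 0.08).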

How the data were processed

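RNA-seq was measured in 12 libraries, 4 per condition and 2 per line within a condition, made with a low-input protocol for the BGISEQ-500RS. The authors removed adapters with Trim Galore 0.5.0, estimated transcript abundance with kallisto 0.44.0 (mm10), summed transcripts to genes with tximport and deposited the estimates as whole-number counts. A second table that the authors made with the regularized logarithm of DESeq2 1.27.32 was not used here.

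Genes were kept by edgeR's filterByExpr with condition as the group (13312 of 17365), normalized by TMM and fitted with glmQLFit (edgeR 4.0.16 in R 4.3.3) on condition and line. Tests were two-sided, with Benjamini-Hochberg adjustment over the 13312 genes. Line differences and values within a line came from a fit with 6 groups of line and condition. Log2 CPM used a prior count of 2. Positions and transcript lengths came from GENCODE vM21 on GRCm38. The steps were tested on simulated data. Library totals of 18069052 to 19451818 counts set the precision, and spread between libraries is in each SE.

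From each list beside the network, at most the 3 largest rises and 3 largest falls past the threshold were to be named in BMP against EGF/FGF and in BMP/FGF against BMP. Sin3a (in BMP against EGF/FGF), Fbxw7, Mlxipl, Tert, Cd24a, Ran, Hspd1, Nop2 and Cdk4 fall outside this rule and were chosen after their values were seen. The values of some single genes that the rule names are not reported here, whereas counts over lists include them. The network genes and all lists were chosen with earlier results of these data known. Alternative fits used the size factors of DESeq2, library size without further scaling, a Wald test (DESeq2 1.42.0), all genes without a filter, a replicate block, the 8 libraries of a comparison by themselves, no term for line, a single line, and 11 libraries with each left out in turn. Levels per kb were also taken with the median transcript length.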

Additional observations from a re-analysis of the deposited data

Results flagged for a closer look

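Of 30 sets of 4 libraries (10 genes in 3 conditions), 1 held a library set apart by Dixon's test at the 95% level. For 4 libraries of 1 kind, chance marks about 1 set in 20. Each set here held 2 libraries of each line, so that rate need not hold. The set marked was Myc in BMP/FGF, where ANS4 replicate 2 stood at 37.3 CPM and the others at 40.9 to 41.3 CPM.

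Of 30 line differences (10 genes in 3 comparisons), 10 were called by edgeR's interaction test, each given here as the log2 change in BL6 minus that in ANS4. In BMP against EGF/FGF they were Myc 0.936, Mycl 0.968, Mxd4 0.488, Mxi1 0.531 and Mnt 0.46, beside 9.02% of all tested genes called. For BMP/FGF against EGF/FGF they were Mycl 0.494 and Mxi1 0.354, beside 4.98%. For BMP/FGF against BMP they were Myc -0.918, Mycl -0.475 and Mxd3 -0.81, beside 13.5%. The 3 comparisons share libraries, so these calls are not separate evidence of one another. Beside them, the summed neuroblast markers in BMP were 922.8 to 926.4 CPM in ANS4 and 1514 to 1615 CPM in BL6, and their part in the line differences was not tested.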

How the results depend on the processing

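Over 21 alternatives, the number of network genes called stayed at 9 to 10 in BMP against EGF/FGF, at 10 in BMP/FGF against EGF/FGF and at 6 to 8 in BMP/FGF against BMP, and the induced targets called at 54 to 57 and at 18 to 22. The number of network genes with a line difference was less stable. In BMP against EGF/FGF (5) it was 3 with only the 8 libraries compared, and 3 to 7 with each library left out. For BMP/FGF against EGF/FGF (2) it was 1 with the replicate block, with the DESeq2 Wald test, without a filter and with library size only, 3 with only the 8 libraries compared, and 0 to 3 with each library left out. With the replicate block and with library size only, the calls for Mycl and Mxi1 were both lost and the 1 gene called was Mycn. For BMP/FGF against BMP (3) it was 1 to 5 with each library left out. Myc in BMP/FGF against BMP was reversed with ANS4 alone (0.27, FDR = 0.0198 by edgeR).

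The call for Mnt in BMP against EGF/FGF ended without any one library other than the ANS4 BMP/FGF pair, BL6 EGF/FGF replicate 1 and BL6 BMP replicate 1 (FDR up to 0.155). The call for Mxd4 there ended without ANS4 EGF/FGF replicate 2, ANS4 BMP replicate 1 or BL6 EGF/FGF replicate 2 (FDR up to 0.0947). Of the line differences in BMP/FGF against EGF/FGF, Mycl was kept only without a BL6 BMP library (FDR otherwise up to 0.201) and Mxi1 only without a BMP library or BL6 EGF/FGF replicate 2 (up to 0.181). Of those in BMP/FGF against BMP, Mycl ended without ANS4 BMP replicate 1 or any BMP/FGF library (up to 0.0743), and Mxd3 without ANS4 BMP replicate 1, BL6 BMP replicate 2, either ANS4 BMP/FGF library or BL6 BMP/FGF replicate 2 (up to 0.145). Mycn in BMP/FGF against EGF/FGF (-0.867, FDR = 0.0510) gained a call in 7 of 18 alternatives. Replicate numbers gave no sign of pairing the samples. The differences between replicates 1 and 2, taken gene by gene, correlated between the conditions of a line at -0.0711 to 0.0529. The replicate block left 9, 10 and 6 network genes called. With the median transcript length, 18 of 30 ranks of levels per kb changed.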

Other observations

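Over the 12 libraries, the genes whose log2 CPM followed each network gene most closely were sought among 9958 genes with a mean above 3 on that scale. Pearson's r is given as a description, since the 12 points share 3 conditions and 2 lines. For Mycl the closest were Myt1, a zinc finger factor of neural progenitors and neuroblasts (0.994), and Brinp2, a neural cell cycle gene (0.992). For Mxd3 they were Bcat1, an enzyme of branched-chain amino acid use (0.990), Ube2c, of mitotic protein turnover (0.990), and Ticrr, of replication start (0.988). For Mxd4 the closest was Cnp, a myelin enzyme (0.9975), and for Mxi1 Hsd17b11, of steroid and lipid metabolism (0.997). Myc was followed by Cpsf4, of mRNA 3′ end formation (0.986), and Mycn by Tmem108 (0.987). For Mga the closest were Mcm3ap (0.973), Phip (0.971) and the remodeller Chd4 (0.9695).

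Among the network genes themselves, Mxd4 and Mxi1 had the highest r (0.984), and Myc and Mxi1 (-0.86) and Mxd3 and Mxi1 (-0.879) the lowest.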
